A study of Mus musculus with 6 samples.

Results

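The genes described here are the collagen chains, the laminin chains, and Nid1, Nid2, Hspg2 and Agrn, picked by a rule on their symbols. That rule was set with earlier results of these data known. It gave 59 of the 23420 genes in the deposited count table. These were 23 basement membrane genes, 11 fibrillar collagen chains and 25 other collagen chains.

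Basement membranes are thin sheets of matrix that underlie endothelial cells. They are built from a laminin network of heterotrimers with 1 alpha, 1 beta and 1 gamma chain, and from a collagen IV network that nidogens and the proteoglycan perlecan join to the laminins. Fibrillar collagens such as types I and III are instead the main matrix of connective tissue and come largely from fibroblasts and other mesenchymal cells.

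The cells were tdTom+ endothelial cells, set against tdTom- endothelial cells of the same kind of embryo, with 3 libraries in each group. Both fractions were taken from E12.5 mouse embryos of the genotype Csf1r-iCre;RosatdTom. In these, the promoter of the myeloid receptor gene Csf1r drives Cre, and cells make the red protein tdTomato once Cre has recombined the reporter. Cells of 3 whole embryos that were positive for PECAM1 and negative for CD45, CD11b and KIT were sorted by tdTomato. The reporter marks any cell with past or present Cre activity, so that the tdTom+ fraction is defined by Cre history and not by a vessel bed. The labels do not tie a library to an embryo, and p-values measure the spread between these libraries, which may be technical.

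The library totals ran between 10675472 and 11501313 counts for tdTom+ and between 8919887 and 11767956 for tdTom-. Genes with a count numbered 15300, 14432 and 14748 in tdTom+ libraries 1 to 3, against 16070, 16109 and 15850 in tdTom- libraries. Every tdTom+ library thus detected fewer genes than every tdTom- library, and tdTom+ library 2 the fewest. The part of this in the counts of 0 and in the levels of scarce members was not tested. All 16 genes of an endothelial list were measured, and their summed level was 9849 to 10508 CPM (a gene's counts scaled to the size of its library) in tdTom+ and 9986 to 10202 CPM in tdTom- libraries. The members took 0.953% to 0.981% of all counts in tdTom+, against 1.03% to 1.16% in tdTom- libraries. Of the 59 members, 48 were abundant enough to test, among 13142 genes tested in all.

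The genes of the α1 and α2 chains of collagen IV, Col4a1 and Col4a2, lie head to head on chromosome 8 and run in opposite directions from neighbouring starts. The same layout is repeated for Col4a3 and Col4a4 on chromosome 1 and for Col4a5 and Col4a6 on the X chromosome. In RefSeq (GRCm38.p6) the Col4a1 and Col4a2 transcripts overlap by 22 bases, while 1342 bases separate the starts of Col4a6 and Col4a5. Between the Col4a4 start of RefSeq and the Col4a3 start of GENCODE M21 lie 71 bases. The joint start regions of the first and the second pair are shown because one pair was among the most abundant transcripts of the set and the other was nearly silent. Capitals mark a GC box (GGGCGG or its complement CCGCCC), and the plus strand is shown.
Col4a1 and Col4a2, chr8:11312805-11312826: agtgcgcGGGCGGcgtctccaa
Col4a3 and Col4a4, chr1:82586850-82586920: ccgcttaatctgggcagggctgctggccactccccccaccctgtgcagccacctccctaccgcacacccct
The upstream stretches of 2 abundant basement membrane genes and of 2 collagen IX genes follow, each ending before the first annotated start in RefSeq and in GENCODE M21. They are shown because the first pair stayed close between the fractions and the second pair had large differences. Capitals here mark a GC box or a CCAAT box (CCAAT or ATTGG).
Nid1, chr13:13437352-13437550: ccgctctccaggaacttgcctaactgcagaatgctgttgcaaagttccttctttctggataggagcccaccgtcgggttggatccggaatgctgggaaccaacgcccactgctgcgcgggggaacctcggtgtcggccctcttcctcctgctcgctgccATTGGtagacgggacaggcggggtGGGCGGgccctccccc
Lamb1, chr12:31265043-31265233: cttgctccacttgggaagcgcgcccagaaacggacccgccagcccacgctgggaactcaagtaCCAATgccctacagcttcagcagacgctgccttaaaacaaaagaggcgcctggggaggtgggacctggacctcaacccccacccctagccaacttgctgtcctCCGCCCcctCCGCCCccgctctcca
Col9a1, chr1:24177360-24177609: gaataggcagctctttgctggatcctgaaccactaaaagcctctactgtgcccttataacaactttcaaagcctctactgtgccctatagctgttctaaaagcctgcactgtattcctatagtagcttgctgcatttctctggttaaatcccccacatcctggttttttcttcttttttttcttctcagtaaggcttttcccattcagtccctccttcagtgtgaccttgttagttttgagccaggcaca
Col9a2, chr4:121039316-121039384: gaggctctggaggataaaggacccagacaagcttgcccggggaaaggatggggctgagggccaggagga

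The stretches of Nid1 and Lamb1, of 199 and 191 bases, were 63.8% and 63.9% G or C and held both motifs. Those of Col9a1 and Col9a2, of 250 and 69 bases, were 43.6% and 62.3% G or C and held neither. The base composition of Col9a2 was thus close to that of Nid1 and Lamb1, but its shorter stretch had less room for a motif. RefSeq promoter windows of 300 bases were matched by symbol for 43 of the 59 members and for 16375 genes of the count table, members included, with the first listed window taken for each gene. A GC box on either strand was in 65.1% of the matched members, against 47.3% of all matched genes. A CCAAT box was in 32.6% of the matched members, against 39% of all matched genes, and a TATA box (TATAAA) in 11.6%, against 12.9%. None of these motifs contains another. Such matches describe letters and not bound factors, and a link between motifs and the difference between the fractions was not tested.

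Across the 48 tested members, Lamc3 was the one gene that passed, and it was lower in tdTom+ cells (quasi-likelihood test of edgeR, adjusted p under 0.05 by Benjamini-Hochberg over all genes). Among all tested genes, 1.58% passed, 0.814% as lower and 0.769% as higher in tdTom+ cells. At an unadjusted p under 0.05, 11 members were lower and 0 higher, against 5.94% and 4.76% of all tested genes. The fold change was below 0 in 40 of the 48 members, where 50% of all tested genes were below 0. The median log2 fold change (tdTom+ minus tdTom-) was -0.35 over the tested members and -0.000 over all tested genes. It was -0.19 for the 21 tested basement membrane genes, -0.97 for the 10 tested fibrillar chains and -0.60 for the 17 other tested collagens. Members of one class come from the same libraries and partly the same cells, so these medians are descriptions and were not tested. The 11 members not tested had at most 24 counts in any library. They were Col4a3, Col4a4, Col6a4, Col6a5, Col6a6, Col7a1, Col10a1, Col19a1, Col20a1, Col24a1 and Col28a1. Col4a4 and Col19a1 had no count in any tdTom+ library, and a count of 0 allows up to 0.263 to 0.280 CPM there, for counting error only.

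**Figure D1:**
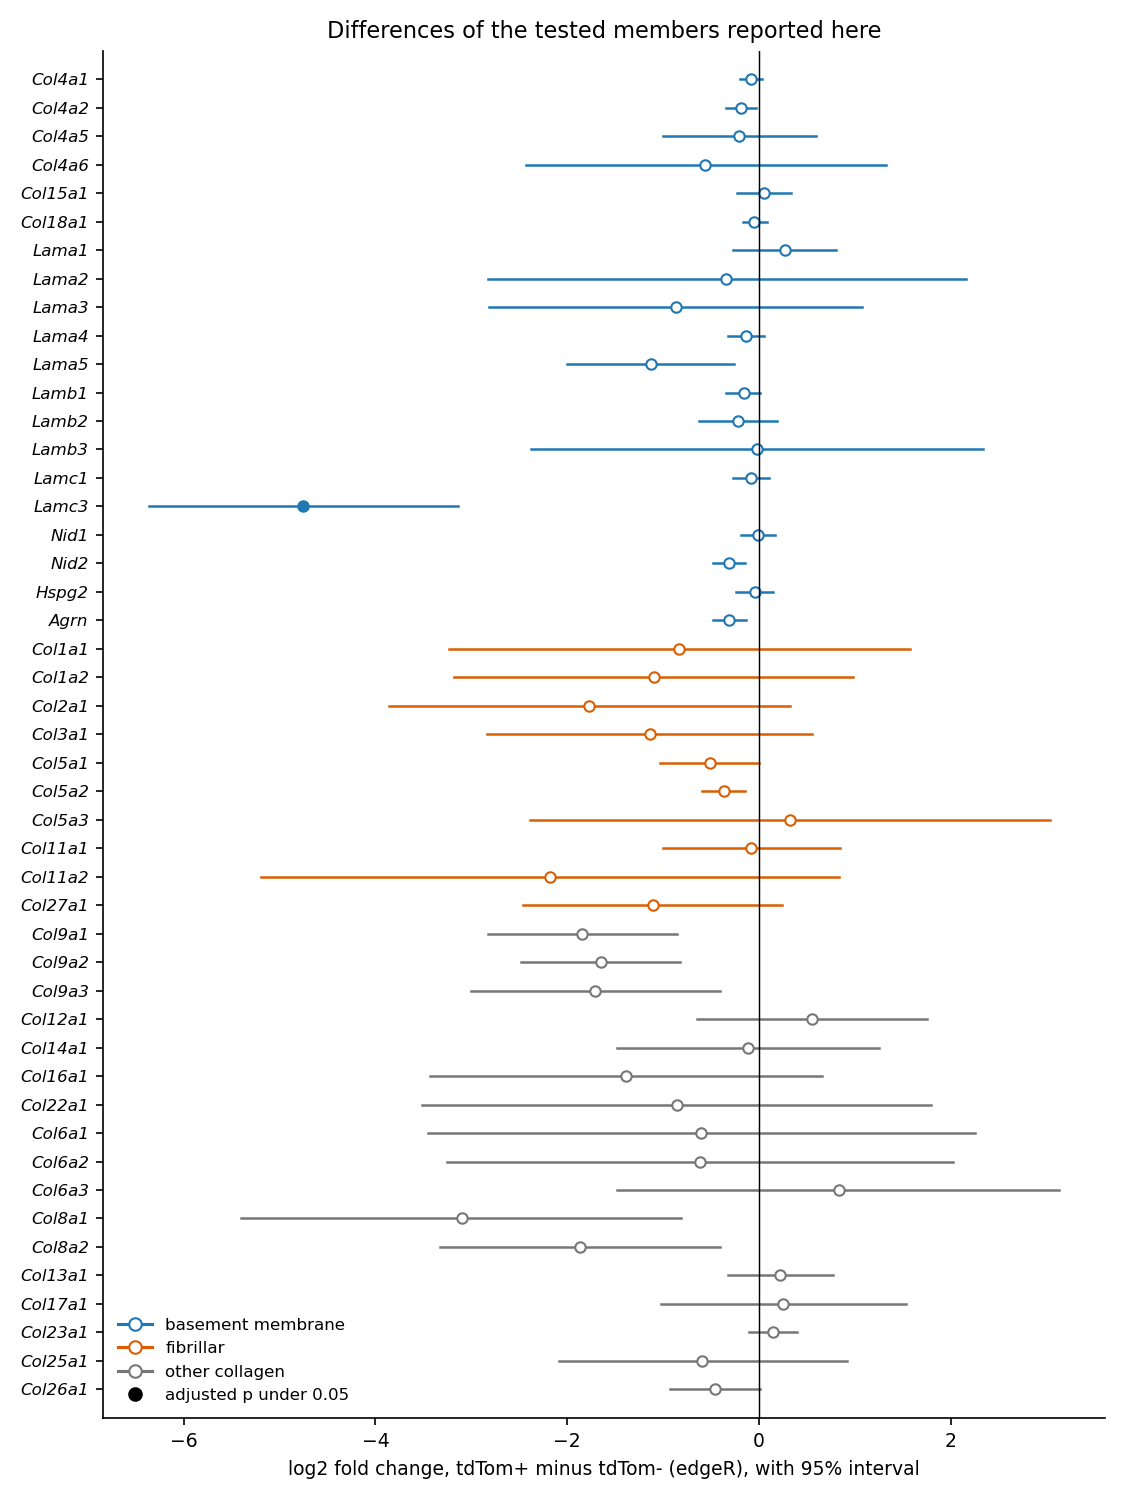
Log2 fold change of the tested members reported here (horizontal axis, tdTom+ minus tdTom-, edgeR) with its 95% interval as a line, coloured by class. The filled point is Lamc3 at -4.75, the one member that passed; the abundant basement membrane chains have short intervals near 0 and most other collagens have long ones.

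Col4a1 and Col4a2, the main collagen IV chains, were among the most abundant members, and neither passed. Col4a1 (chromosome 8, 11198423 to 11312826, GRCm38) had 2397, 2429 and 2281 CPM in tdTom+ libraries 1 to 3, against 2548, 2533 and 2439 CPM in tdTom- libraries 1 to 3. Col4a2 (chromosome 8, 11312805 to 11449287) had 1292, 1365 and 1203 CPM in tdTom+, against 1494, 1538 and 1359 CPM in tdTom- libraries. The groups did not overlap for Col4a1, with 2429 CPM in the highest tdTom+ and 2439 CPM in the lowest tdTom- library, and for Col4a2 they did. Col4a1 had a log2 fold change of -0.08 ± 0.05 (SE, with adjusted p = 0.662 by edgeR) and Col4a2 one of -0.19 ± 0.07 (SE, with adjusted p = 0.320 by edgeR). The 95% intervals of the difference in level ran from -12.8% to 2.39% for Col4a1 and from -21.0% to -2.30% for Col4a2.

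The other collagen IV chains, which in adult tissue belong to specialised basement membranes such as that of the kidney glomerulus, were scarce. Col4a5 had 5.35, 15.5 and 10.8 CPM in tdTom+, against 12.7, 12.4 and 11.3 CPM in tdTom- libraries, and tdTom+ library 1 was the lowest of all. Col4a6 averaged 1.11 ± 0.830 CPM in tdTom+, against 1.63 ± 0.961 CPM in tdTom- cells (SD, n = 3 each). Neither passed, with edgeR adjusted p = 0.913 and 0.897. Col4a3 had 13, 0 and 3 counts in tdTom+ libraries, against 0, 1 and 2 in tdTom- libraries. Col4a4 had 0 counts in each tdTom+ library and 2, 2 and 0 in tdTom- libraries. The pair with overlapping starts had at least 1203 CPM per gene in every library, and the pair with 71 bases between its starts at most 1.14 CPM. In the third pair, with 1342 bases between its starts, Col4a5 reached 15.5 CPM. A link between level and the spacing of the starts was not tested. Per length of the longest coding transcript, the Col4a2 level was 0.553, 0.576 and 0.541 of the Col4a1 level in tdTom+ libraries, against 0.601, 0.623 and 0.572 in tdTom- libraries. The values overlapped, and the difference in log2 ratio was -0.10 (exact two-sided permutation test, p = 0.200, adjusted p = 0.667 over 10 ratios of member pairs). With 3 libraries against 3 this test cannot give a p under 0.1.

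Col18a1 and Col15a1 encode the multiplexin collagens of basement membranes, and Col18a1 is the source of the fragment endostatin. Col18a1 (chromosome 10, 77052178 to 77166548) had 2003, 2129 and 1940 CPM in tdTom+, against 2080, 2169 and 2027 CPM in tdTom- libraries. The groups overlapped, and the log2 fold change was -0.05 ± 0.06 (SE, with adjusted p = 0.863 by edgeR) with an interval from -11.4% to 5.64%. Slc19a1 overlaps it on the opposite strand with at most 381 counts in a library, where Col18a1 had at least 18105. Col15a1 averaged 129 ± 11 CPM in tdTom+, against 125 ± 20 CPM in tdTom- cells (SD, n = 3 each, edgeR adjusted p = 0.943). Per kilobase of transcript, Col18a1 stood at 362 ± 17.2 CPM and Col4a1 at 358 ± 11.8 CPM in tdTom+ cells, against 374 ± 12.9 and 379 ± 8.93 CPM in tdTom- cells (SD, n = 3 each). These were the 2 highest levels of the set in both fractions and did not differ from each other beyond their spread.

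**Figure D2:**
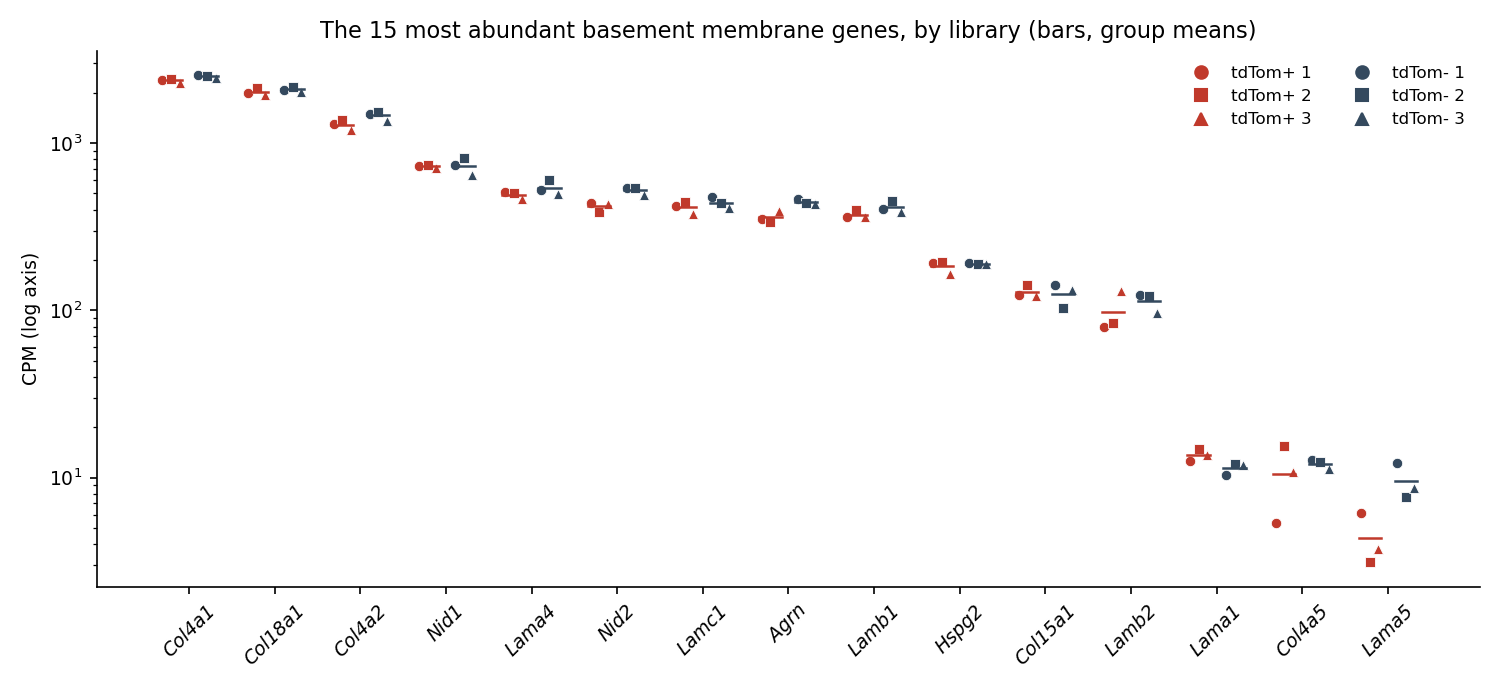
Level of the 15 most abundant basement membrane genes in each library (vertical log axis, CPM), with tdTom+ in red left of tdTom- in blue, 1 symbol shape per replicate number and a bar at each group mean. The libraries of both groups lie close together for the 12 genes at or above 79.0 CPM, and a gap separates these from Lama1, Col4a5 and Lama5, at or below 15.5 CPM.

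Of the laminin chains, α4, β1 and γ1, which form the main laminin of young endothelium, made up most of the signal. Lama4 (chromosome 10, 38965515 to 39110188) had 510.2, 501 and 463 CPM in tdTom+, against 527, 604 and 493 CPM in tdTom- libraries. Lamb1 (chromosome 12, 31265234 to 31329644) averaged 371 ± 21.1 CPM in tdTom+, against 415 ± 33.1 CPM in tdTom- cells, and Lamc1 (chromosome 1, 153218922 to 153332786) averaged 415 ± 33.1 and 439.9 ± 33.2 CPM (SD, n = 3 each). For each of the 3 genes the fractions overlapped. The log2 fold changes were -0.14 ± 0.08, -0.16 ± 0.08 and -0.08 ± 0.08 (SE, with adjusted p = 0.640, 0.523 and 0.807 by edgeR). Their 95% intervals reached no lower than -20.9% and no higher than 7.10%. Per kilobase, the 3 chains stood at 81.3, 64.2 and 54.4 CPM in tdTom+ and at 89.5, 71.8 and 57.7 CPM in tdTom- cells, so that α4 was the highest and γ1 the lowest of the 3 in both. Lamb2, the alternative β chain, was lower than Lamb1 in every library, at a per-length ratio of 0.226, 0.218 and 0.376 in tdTom+ and 0.313, 0.277 and 0.254 in tdTom- libraries. Its log2 fold change was -0.22 ± 0.18 (SE, with adjusted p = 0.767 by edgeR).

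Lamc3, which encodes the laminin γ3 chain (chromosome 2, 31887291 to 31946539), was nearly absent from tdTom+ cells. It had 6, 0 and 6 counts in tdTom+ libraries 1 to 3, against 93, 139 and 84 counts in tdTom- libraries, or 0.526, 0 and 0.561 CPM against 9.02, 11.8 and 9.40 CPM. Every tdTom- library was far above every tdTom+ library, and the count of 0 in tdTom+ library 2 allows up to 0.275 CPM for counting error only. The log2 fold change was -4.75 ± 0.73 (SE, with adjusted p = 0.00961 by edgeR). The call ended without tdTom- replicate 2 or 3 (edgeR adjusted p = 0.0770 and 0.0766) and with limma-voom (adjusted p = 0.0590), with log2 fold changes of -4.62, -4.80 and -5.33. In bulk RNA, fewer cells that express a gene and less RNA per cell cannot be told apart. The γ1 chain stood far above γ3 in both fractions, with 54.4 CPM per kilobase against 0.0617 in tdTom+ cells, and 57.7 against 1.71 in tdTom- cells.

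Beside Lamc3, the 14 genes of a list of brain endothelium summed to 1148, 1330 and 1196 CPM in tdTom+, against 1775, 1770 and 1873 CPM in tdTom- libraries. Of these, 6 fell and 0 rose, against 0.814% and 0.769% of all tested genes. All 14 had a fold change below 0, against 50% of all tested genes. The 14 genes of an arterial list summed to 1601 to 1766 CPM in tdTom+ and 1968 to 2123 CPM in tdTom- libraries, and 2 of them fell. Liver sinusoidal endothelial markers summed to 3025, 2650 and 3046 CPM in tdTom+, against 1243, 1091 and 1175 CPM in tdTom- libraries, and 10 of the 12 tested rose. Of the megakaryocyte and platelet markers 9 of 15 tested rose, and of the macrophage markers 1 of 12, Mrc1, which is also one of the liver sinusoidal markers that rose. Hepatoblast markers summed to 189, 171 and 175 CPM in tdTom+, against 340.5, 219.7 and 461 CPM in tdTom- libraries, with 0 of 9 tested passing. Epithelial markers summed to 84.7, 24.9 and 3.18 CPM in tdTom+, against 48.7, 80.5 and 41.4 CPM in tdTom- libraries. Of the 9 tested 0 passed, and 6 had a fold change below 0. The part of these cell types in the Lamc3 result was not tested.

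The other laminin chains described here were scarce. Lama5, whose α5 chain joins endothelial basement membranes later as vessels mature, had 6.14, 3.11 and 3.74 CPM in tdTom+, against 12.3, 7.62 and 8.62 CPM in tdTom- libraries. The groups did not overlap, yet the log2 fold change of -1.13 ± 0.39 (SE) stayed short of the threshold (adjusted p = 0.275 by edgeR). Relative to Lama4 per length, Lama5 stood at 0.00643, 0.00335 and 0.00434 in tdTom+ and at 0.0125, 0.00674 and 0.00935 in tdTom- libraries, again without overlap (exact two-sided permutation test, p = 0.1, the smallest this design allows, adjusted p = 0.5 over 10 ratios). Lama1, the α1 chain of early embryonic basement membranes, had 12.5, 14.9 and 13.7 CPM in tdTom+, against 10.3, 12.1 and 11.9 CPM in tdTom- libraries. It was the only tested member with every tdTom+ library above every tdTom- library, where 7.88% of all tested genes had that order. Its log2 fold change of 0.27 ± 0.24 (SE) stayed short of the threshold (adjusted p = 0.785 by edgeR). Lama2, with a role in muscle, and Lama3 and Lamb3, with roles in epithelium, averaged 1.60 to 2.60 CPM in tdTom+ and 2.02 to 3.27 CPM in tdTom- cells. Library 2 of the tdTom+ group had no count for Lama2 and Lamb3, and none of the 3 passed (edgeR adjusted p from 0.815 to 0.999).

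Nidogens link laminin to collagen IV. Nid2 (chromosome 14, 19751265 to 19811787) had 439, 386 and 434 CPM in tdTom+, against 541, 535 and 489.5 CPM in tdTom- libraries, and the groups did not overlap. Nid1 (chromosome 13, 13437551 to 13512269) had 726, 743 and 708 CPM in tdTom+, against 737, 811 and 648 CPM in tdTom- libraries, and the groups overlapped. Nid2 had a log2 fold change of -0.31 ± 0.08 (SE), a difference of -19.6% with an interval from -28.3% to -9.72%, and did not pass (edgeR adjusted p = 0.0785). For Nid1 the log2 fold change was -0.01 ± 0.08 (SE, with adjusted p = 0.981 by edgeR), with an interval from -12.5% to 12.2%. The per-length ratio of Nid2 to Nid1 was 0.756, 0.649 and 0.765 in tdTom+ and 0.917, 0.824 and 0.944 in tdTom- libraries, without overlap (exact two-sided permutation test, p = 0.1, adjusted p = 0.5 over 10 ratios).

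Agrn, which encodes the heparan sulphate proteoglycan agrin (chromosome 4, 156165290 to 156197488), had 352, 338 and 391 CPM in tdTom+, against 466, 440.1 and 433 CPM in tdTom- libraries. The groups did not overlap, and the log2 fold change of -0.31 ± 0.08 (SE), or -19.3%, did not pass (edgeR adjusted p = 0.0831). Without tdTom+ replicate 3 it passed (log2 fold change -0.37, edgeR adjusted p = 0.0450). Hspg2, which encodes perlecan (chromosome 4, 137468769 to 137570630), had 191, 195 and 165 CPM in tdTom+, against 191, 189 and 188 CPM in tdTom- libraries, with a log2 fold change of -0.04 ± 0.09 (SE, with adjusted p = 0.926 by edgeR). The ratio of Agrn to Hspg2 did overlap between the fractions (exact two-sided permutation test, p = 0.300, adjusted p = 0.750 over 10 ratios). Summed over all 23 basement membrane genes, the level was 8931, 9188 and 8619 CPM in tdTom+, against 9786, 9993 and 9162 CPM in tdTom- libraries. The highest library was 1.16 times the lowest.

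**Figure D3:**
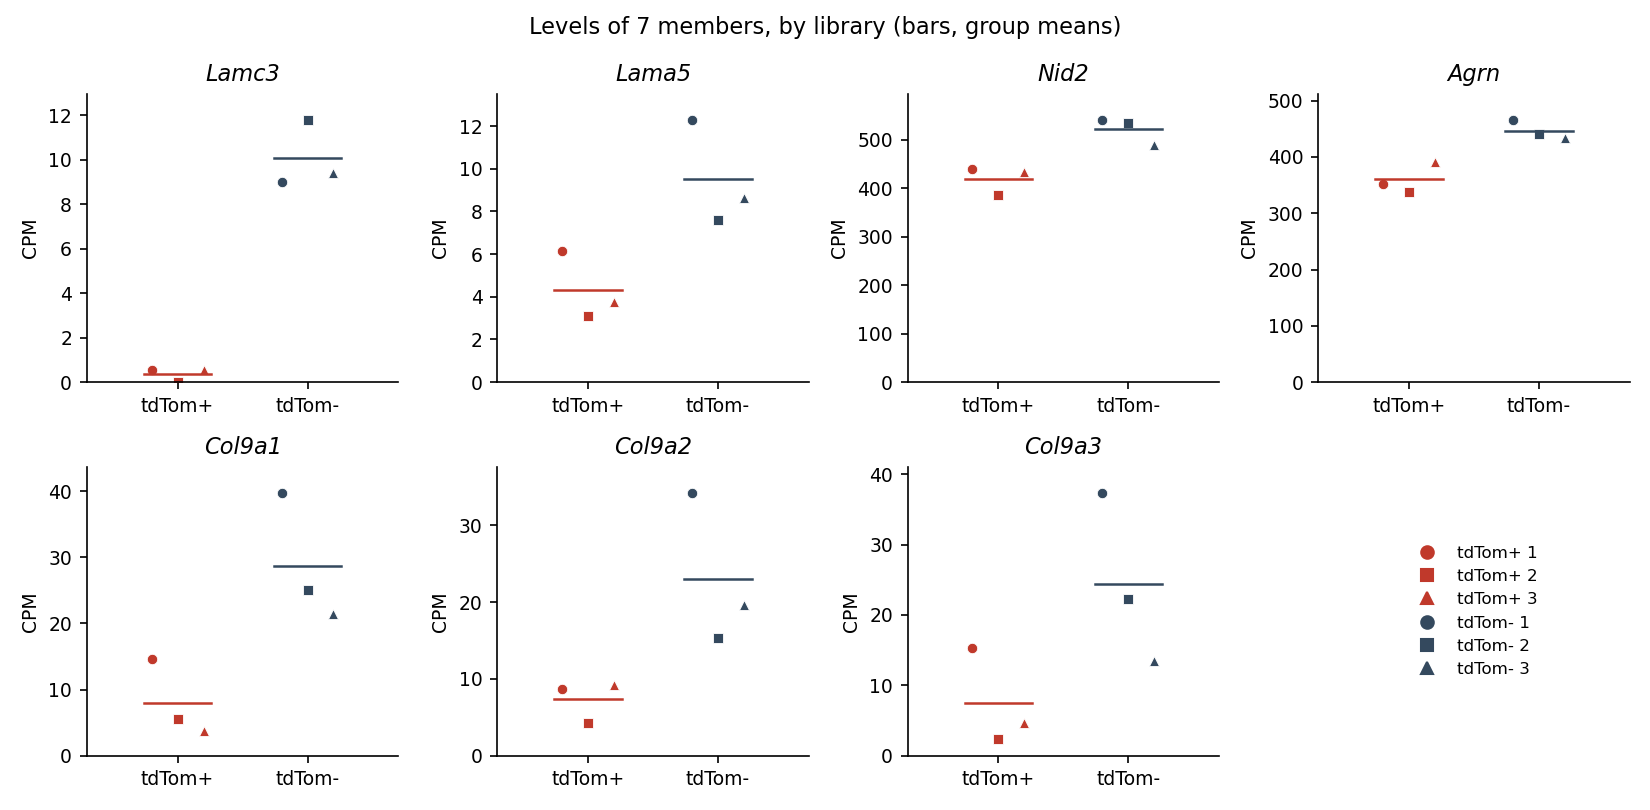
Levels of Lamc3, Lama5, Nid2, Agrn, Col9a1, Col9a2 and Col9a3 in each library (vertical axis, CPM from 0), with tdTom+ left of tdTom- and a bar at each group mean. Lamc3 lies at or below 0.561 CPM in tdTom+ and at or above 9.02 CPM in tdTom- libraries; Nid2 and Agrn differ by -19.6% and -19.3%; Col9a3 overlaps between the groups.

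The fibrillar collagens varied between libraries of one group more than the abundant basement membrane genes did. Over the tested members, the median SD of the log2 level within a group was 1.09 in tdTom+ and 0.57 in tdTom- for fibrillar chains, and 0.10 and 0.10 for the 12 basement membrane genes with a mean of at least 100 CPM. For the 9 tested basement membrane genes under 100 CPM it was 0.74 and 0.37, nearer to the fibrillar values. Over all tested genes it was 0.23 in tdTom+ and 0.16 in tdTom-, so that a larger spread in tdTom+ was not particular to the fibrillar chains. Col3a1, the type III chain of soft connective tissue (chromosome 1, 45311538 to 45349706), had 124, 79.4 and 324 CPM in tdTom+, against 540.1, 285 and 340.0 CPM in tdTom- libraries. The α1 chain of collagen I, Col1a1, had 26.7, 27.7 and 124 CPM in tdTom+, against 180.3, 41.6 and 94.6 CPM in tdTom- libraries. Its partner Col1a2 had 47.3, 28.8 and 139 CPM in tdTom+, against 248, 77.6 and 136 CPM in tdTom- libraries. In all 3, tdTom- library 1 was the highest, and tdTom+ library 3 lay within or above the range of tdTom- libraries 2 and 3. None passed, with log2 fold changes of -1.14 ± 0.64, -0.83 ± 0.90 and -1.10 ± 0.78 (SE, with adjusted p = 0.655, 0.854 and 0.740 by edgeR). Leaving out tdTom+ replicate 3 moved these values to -1.93, -1.95 and -2.01, while they stood at -0.83, -0.19 and -0.57 once tdTom- replicate 1 was left out. Without tdTom+ replicate 2 Col3a1, Col1a1 and Col1a2 stood at -0.79, -0.49 and -0.73, and without tdTom+ replicate 1 Col1a1 stood at -0.48, and none passed in any of these fits. The 95% interval of Col3a1 ran from -2.84 to 0.55 on the log2 scale.

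Col5a2, the α2 chain of the collagen V that nucleates type I fibrils, was steadier between libraries than types I and III. It had 128, 157 and 146 CPM in tdTom+, against 192, 194 and 172 CPM in tdTom- libraries, and the groups did not overlap. The log2 fold change was -0.37 ± 0.10 (SE, with adjusted p = 0.117 by edgeR), with an SE below those of Col1a1, Col1a2 and Col3a1. Its partner Col5a1 averaged 47.7 ± 12.8 CPM in tdTom+, against 68.2 ± 19.9 CPM in tdTom- cells (SD, n = 3 each, edgeR adjusted p = 0.469). Collagen VI, which forms beaded filaments next to cells and in mesenchyme, was the most uneven group. The sum of Col6a1, Col6a2 and Col6a3 was 14.4, 8.15 and 110.0 CPM in tdTom+, against 82.0, 24.5 and 62.0 CPM in tdTom- libraries. The highest and the lowest library were thus both tdTom+, and differed by 13.5 times. Without tdTom+ replicate 3, Col6a2 passed as lower.

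Beside these collagens, markers of mesenchyme and mural cells summed to 162, 87.6 and 189 CPM in tdTom+, against 394, 202 and 202 CPM in tdTom- libraries. The lowest library of this sum, tdTom+ library 2, and the highest, tdTom- library 1, were also the lowest and the highest for the summed collagens I and III. Of the 16 tested markers 14 had a fold change below 0 and 1 fell, against 50% and 0.814% of all tested genes. The one that fell was the microfibril gene Mfap5, with a log2 fold change of -2.15 ± 0.37 (SE, with adjusted p = 0.0193 by edgeR). That call ended without tdTom+ replicate 1 or tdTom- replicate 1 or 2 (edgeR adjusted p = 0.0517, 0.145 and 0.107). The fibroblast receptor gene Pdgfra had 74, 59 and 274 counts in tdTom+, against 606, 203 and 173 counts in tdTom- libraries. Among the mural genes of the list, Abcc9 had 681, 331 and 274 counts in tdTom+, against 410, 494 and 169 counts in tdTom- libraries, and Acta2 had 160, 132 and 110 counts in tdTom+, against 198, 202 and 104 in tdTom- libraries. The pericyte gene Rgs5 and the smooth muscle gene Myh11 stood at or below 7 counts in every tdTom+ library, against 25 or fewer in every tdTom- library. The part of mesenchymal RNA in the fibrillar values was not tested.

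**Figure D4:**
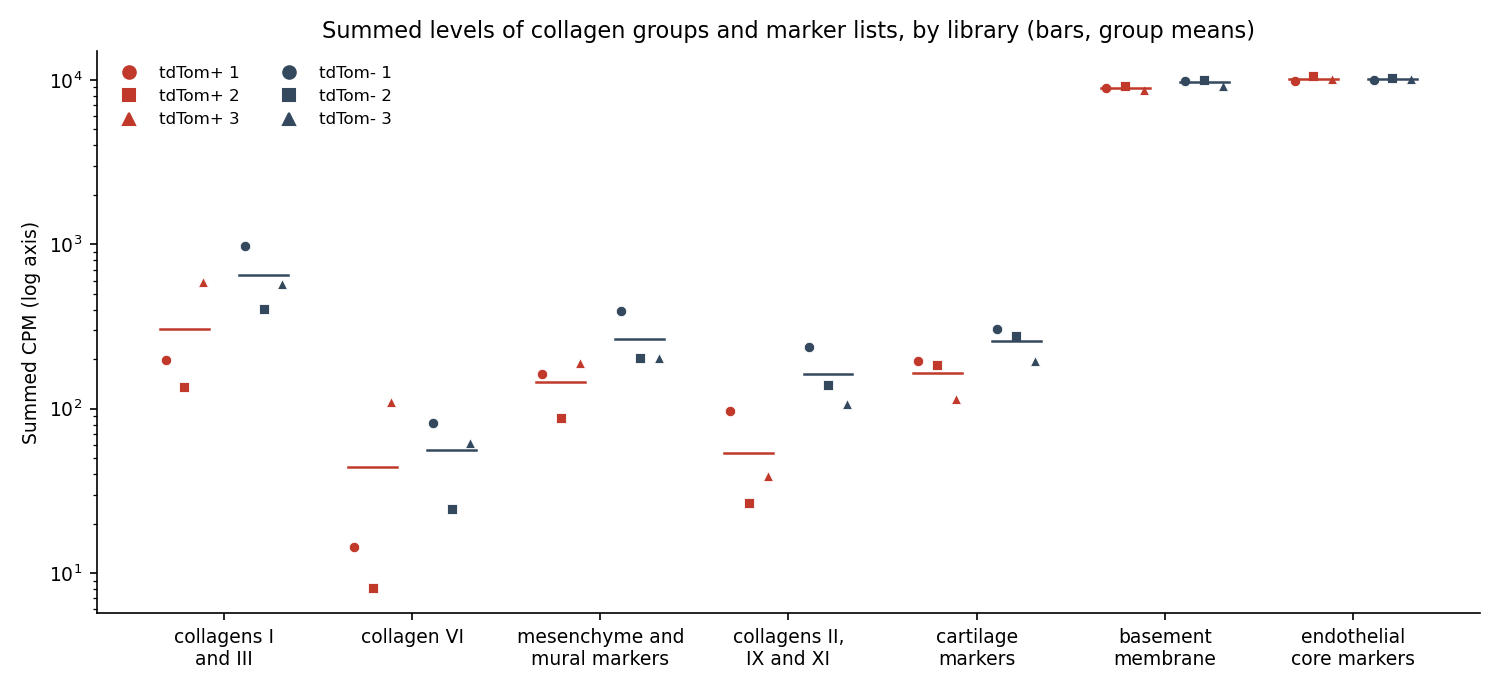
Summed level in each library (vertical log axis, CPM) of collagens I and III, collagen VI, mesenchyme and mural markers, collagens II, IX and XI, cartilage markers, all basement membrane genes and endothelial core markers, with tdTom+ left of tdTom- and a bar at each group mean. Basement membrane and endothelial sums lie within a narrow band in all 6 libraries, while the collagen VI sum runs from 8.15 to 110.0 CPM.

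Collagen IX, which coats type II fibrils and is best known from cartilage and the eye, had a fold change below 0 in all 3 of its chains. Col9a1 (chromosome 1, 24177610 to 24252684) had 14.6, 5.58 and 3.74 CPM in tdTom+, against 39.7, 25.1 and 21.4 CPM in tdTom- libraries. Col9a2 (chromosome 4, 121039385 to 121055322) had 8.68, 4.21 and 9.16 CPM in tdTom+, against 34.2, 15.3 and 19.7 CPM in tdTom- libraries. For both the groups did not overlap. Col9a3 (chromosome 2, 180597790 to 180622189) had 15.3, 2.38 and 4.58 CPM in tdTom+, against 37.3, 22.2 and 13.5 CPM in tdTom- libraries, and tdTom+ library 1 was above tdTom- library 3. None passed, with log2 fold changes of -1.85 ± 0.45, -1.65 ± 0.37 and -1.71 ± 0.59 (SE, with adjusted p = 0.0796, 0.0613 and 0.267 by edgeR). Col9a2 passed with no low-count filter and with the stricter one (edgeR adjusted p = 0.0286 and 0.0407), and Col9a1 and Col9a3 passed without tdTom+ replicate 1 (0.0176 and 0.0436), where the Col9a3 value was -2.81. With DESeq2, Col9a1 and Col9a2 passed (adjusted p = 0.000971 and 0.00135) and Col9a3 did not (0.414).

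Col2a1, the collagen that type IX coats, followed the same order of group means, with 46.1, 9.43 and 7.29 CPM in tdTom+, against 105, 66.0 and 44.4 CPM in tdTom- libraries. The log2 fold change was -1.77 ± 0.82 (SE, with adjusted p = 0.555 by edgeR), and tdTom+ library 1 lay above tdTom- library 3. Without that tdTom+ library it was among the members that passed. Col11a2 had 24, 0 and 1 counts in tdTom+, against 71, 36 and 2 counts in tdTom- libraries, while Col11a1 averaged 9.48 ± 4.45 CPM in tdTom+, against 10 ± 4.19 CPM in tdTom- cells (SD, n = 3 each). A list of cartilage markers summed to 194, 184 and 114 CPM in tdTom+, against 305, 275 and 195 CPM in tdTom- libraries, most of it from the matrix link protein gene Hapln1. Sox9, the regulator of cartilage collagens, had 178, 42 and 88 counts in tdTom+, against 311, 297 and 189 counts in tdTom- libraries, and its log2 fold change of -1.46 ± 0.41 (SE) stayed short of the threshold (adjusted p = 0.136 by edgeR). The defining cartilage gene Acan had 13, 0 and 0 counts in tdTom+, against 25, 20 and 1 in tdTom- libraries, and Matn1 had 0, 0 and 2 counts against 57, 6 and 0. The part of cartilage or other non-endothelial RNA in the collagen IX values was not tested.

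The short chain collagens VIII were low and unevenly spread. Col8a1 had 14, 0 and 2 counts in tdTom+, against 39, 35 and 52 counts in tdTom- libraries, without overlap, and Col8a2 had 34, 9 and 59 counts in tdTom+, against 207, 57 and 83 counts in tdTom- libraries, with overlap. Neither passed, with log2 fold changes of -3.10 ± 1.04 and -1.87 ± 0.66 (SE, with adjusted p = 0.248 and 0.286 by edgeR). Without tdTom+ replicate 1 the value of Col8a1 moved to -5.33, and without tdTom- replicate 1 that of Col8a2 to -1.18. Of the transmembrane collagens, Col23a1 and Col13a1 were the abundant ones, at 111 ± 10 and 39.2 ± 11.5 CPM in tdTom+, against at 100.2 ± 10.1 and 33.6 ± 8.68 CPM in tdTom- cells (SD, n = 3 each). They did not pass (edgeR adjusted p = 0.738 and 0.842). In all, 10 of the 48 tested members had every tdTom+ library below every tdTom- library, namely Col4a1, Lama5, Lamc3, Nid2, Agrn, Col5a2, Col27a1, Col9a1, Col9a2 and Col8a1. Among all tested genes 9.35% had that order.

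The authors' deposited table, whose fold changes run as tdTom- over tdTom+, gives an adjusted p under 0.05 to 7 of the 54 members that have one, all 7 lower in tdTom+ cells. Of all genes with an adjusted p there, 1.92% are called lower and 1.39% higher in tdTom+ cells. The 7 members of the authors' deposited table are Lamc3, Col9a1, Col9a2, Nid2, Agrn, Col5a2 and Col8a1. The same 7 passed when DESeq2 was run on the deposited counts. The log2 values in the authors' deposited table are 4.794 for Lamc3, 0.315 for Nid2 and 0.31 for Agrn, where a positive value means higher in tdTom- cells.

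Genes that make and process these chains were measured as a list of non-members. Collagen chains need proline and lysine hydroxylases and chaperones in the endoplasmic reticulum, and fibrillar procollagens are trimmed outside the cell. Of 30 tested genes of this kind 0 rose and 2 fell, against 0.769% and 0.814% of all tested genes. The median log2 fold change over the list was -0.09. With an unadjusted p under 0.05 (edgeR), 6 were lower and 1 higher, against 5.94% and 4.76% of all tested genes. Leprel2, a prolyl 3-hydroxylase gene, had 23.4, 18.6 and 27.2 CPM in tdTom+, against 52.7, 45 and 44.8 CPM in tdTom- libraries, a log2 fold change of -1.04 ± 0.18 (SE, with adjusted p = 0.0189 by edgeR). Bmp1, the procollagen C-proteinase gene, had 115, 135 and 125 CPM in tdTom+, against 174, 171 and 163 CPM in tdTom- libraries, a log2 fold change of -0.44 ± 0.09 (SE, with adjusted p = 0.0422 by edgeR). The Bmp1 relative Tll1 averaged 45.5 ± 9.03 CPM in tdTom+, against 27.7 ± 2.0 CPM in tdTom- cells (SD, n = 3 each), and did not pass (edgeR adjusted p = 0.0879). The Leprel2 call ended without tdTom+ replicate 1 or any tdTom- replicate (edgeR adjusted p from 0.0655 to 0.123), and the Bmp1 call without any library but tdTom+ replicate 2 (0.0783 to 0.238).

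Of 24 tested accessory proteins of basement membranes and vessel matrix 0 rose and 3 fell, against 0.769% and 0.814% of all tested genes. The list median was -0.36. At an unadjusted p under 0.05 (edgeR), 9 were lower and 3 higher, against 5.94% and 4.76% of all tested genes. Ltbp4, which binds latent TGF-beta and elastic fibres, averaged 92.1 ± 6.47 CPM in tdTom+, against 168 ± 31.3 CPM in tdTom- cells (SD, n = 3 each), a log2 fold change of -0.87 ± 0.14 (SE, with adjusted p = 0.0103 by edgeR). Vwa1, which encodes a perlecan-binding protein, averaged 107 ± 19.2 CPM in tdTom+, against 209 ± 45.2 CPM in tdTom- cells (SD, n = 3 each), a log2 fold change of -0.96 ± 0.16 (SE, with adjusted p = 0.0183 by edgeR). Fbln2, the fibulin-2 gene, had 66.4, 36.5 and 26.5 CPM in tdTom+, against 216, 179.6 and 124 CPM in tdTom- libraries, a log2 fold change of -2.0 ± 0.34 (SE, with adjusted p = 0.0285 by edgeR). The groups did not overlap for any of the 3. The calls ended without tdTom+ replicate 1 or tdTom- replicate 1 or 2 for Ltbp4 (edgeR adjusted p from 0.0603 to 0.0713), without tdTom+ replicate 1 or tdTom- replicate 3 for Vwa1 (0.0652 and 0.0820), and without tdTom+ replicate 2 or tdTom- replicate 2 for Fbln2 (0.171 and 0.109). Without the low-count filter and with the stricter one the Fbln2 call ended too (edgeR adjusted p = 0.162 and 0.0738).

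Of 19 tested laminin and collagen receptor genes 0 rose and 0 fell by edgeR, against 0.769% and 0.814% of all tested genes. The list median was -0.25. With an unadjusted p under 0.05 (edgeR), 2 were lower and 0 higher, against 5.94% and 4.76% of all tested genes. The smallest p was that of Itgb4, the β4 integrin that pairs with α6 as a laminin receptor. It averaged 1.98 ± 1.80 CPM in tdTom+, against 9.09 ± 3.36 CPM in tdTom- cells (SD, n = 3 each), and its log2 fold change of -2.19 ± 0.78 (SE) stayed short of the threshold (adjusted p = 0.292 by edgeR). The collagen receptor genes Itga1 and Itga2 both had a log2 fold change of -0.31 and did not pass (edgeR adjusted p = 0.403 and 0.526).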

How the data were processed

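Endothelial RNA was amplified with the SMART-seq V4 kit and made into Nextera XT libraries, per the labels' protocols. This chemistry does not mark strand, so reads from bases that a member shares with an opposite-strand gene cannot be told apart by strand. An opposite-strand gene overlaps the span of 25 members, counted from gene start to gene end with introns included. Per the submitters' processing notes, which give no role or order, the build was mm10 and the tools included featureCounts 1.4.6, STAR 2.5.2b, DESeq2, Trimmomatic 0.36.4 and Picard 2.7.1.1. The counts were deposited by the authors as whole reads per gene without normalization. The deposited log2 fold changes and p-values of the authors are quoted only where named. The deposited scaled counts (a score here), group means (signal) and fold ratio of the authors were not used.

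Groups came from the sample titles. The count test was that of edgeR 4.0.16 under R 4.3.3 (TMM scaling, minimum count 10, robust quasi-likelihood F-test, two-sided, no block) and adjusted over 13142 genes, with a threshold of 0.05. CPM use TMM-scaled totals. SE is the log2 fold change over the square root of F. Within-group SDs of log2 levels use CPM plus a pseudocount of 0.5. Lengths are exon lengths of the longest coding transcript in GENCODE M21 (GRCm38, the sequence of mm10). Ratios of member pairs added 0.5 counts and were tested by exact permutation. Libraries of one group differed by more than sampling noise, and more so in tdTom+. The mean chi-square per gene was 7.85 to 10.1 for pairs of tdTom- libraries and 14.8 to 19.0 for pairs of tdTom+ libraries. The members, lists and naming rule were chosen with earlier results of these data known. Values were given for members that passed, the 10 with the smallest p, the most abundant of each class, tested collagen IV and laminin chains and ratio partners. These are values per library for most, and group means, ranges of means or ratios for the others. Col2a1, Col5a1, Col6a1 to Col6a3, Col11a1, Col11a2, Col13a1, Col23a1, Pdgfra, Abcc9, Acta2, Mrc1, Rgs5, Myh11, Acan and Matn1 lie outside that rule and were named after their values were seen. One gene is not reported here. Alternatives were a replicate block, RLE size factors, DESeq2 1.42.0, limma-voom (limma 3.58.1), 2 other filters, 1 instead of 0.5 counts added to the ratios, and leaving out each library.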

Additional observations from a re-analysis of the deposited data

How the results depend on the processing

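The number of members called lower, 1 in the main fit, was 7 with DESeq2, 0 with limma-voom, and 2 both without the low-count filter and with the stricter filter (minimum count 50); leaving out 1 library gave 0 to 4, and no member was called higher in any of these fits. Over all genes, 101 were higher and 107 lower; DESeq2 gave 211 and 291, and leaving out 1 library gave 37 to 97 higher and 25 to 92 lower. RLE size factors kept Lamc3 as the one member called. The labels do not say that a replicate number names an embryo. Same-numbered libraries had deviations from their group means that correlated across genes at r = 0.105, 0.0892 and 0.161, and every library correlated best with its own number, which is a hint from the data and not from the design. A fit with a replicate block called 128 genes higher and 167 lower, and 5 members lower: Lamc3, Col9a1, Col9a2, Col9a3 and Col2a1 (adjusted p of the collagen IX chains 0.00261, 0.00987 and 0.0160). Of 30 named members, those whose direction turned when 1 library was left out were never called: Col15a1 (log2 fold changes from -0.08 to 0.14, with -0.02 without tdTom+ replicate 2), Col4a5 (-0.60 to 0.11), Col4a6 (-1.36 to 0.02), Hspg2 (-0.09 to 0.03), Lama2 (-2.48 to 0.24), Lamb3 (-1.25 to 0.56) and Nid1 (-0.10 to 0.07). With 1 library left out, Lama3 ranged from -2.04 to -0.32 and Lamb2 from -0.48 to -0.08. Log2 ratio differences that turned were those of Col4a5/Col4a1 (-0.57 to 0.18), Col4a6/Col4a5 (-0.77 to 0.21), Col15a1/Col18a1 (-0.06 to 0.20) and Lamb2/Lamb1 (-0.34 to 0.06). Fibrillar chains summed to 422, 368 and 813 CPM in tdTom+, against 1388, 737 and 857 CPM in tdTom- libraries, and the groups overlapped. The summed basement membrane level differed by -0.11 on the log2 scale (-0.15 to -0.09 with 1 library left out) and the summed fibrillar level by -0.93 (-1.28 to -0.66). The causes of these changes were not tested. Counts below about 20 in a library, as in most untested members, limit what the depth can show.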
